A study of Mus musculus with 24 samples.

Results

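Cytosolic ribosomes are built from ribosomal RNA and ribosomal proteins, and the genes of those proteins were followed here in mouse liver RNA. A gene was a member when its name on the array began with Rpl or Rps and a digit, or was Rplp0, Rplp1, Rplp2 or Rpsa, leaving out ribosomal S6 kinases, Rps19 binding proteins and named pseudogenes. That gave 86 genes, with 185 probes, of 27248 genes and 56605 probes on the array. Of these, 82 had a probe that exceeded background in 5 or more of the 22 animals, and these entered the tests among 17215 genes. They were 45 proteins of the large subunit, 31 of the small subunit and 6 paralogues, that is, related copies of such genes. The groups compared were 6 fasted LKO, 6 fed LKO, 5 fasted WT and 5 fed WT mice. LKO livers lacked Ppara, the nuclear receptor that switches on fatty acid use during fasting, through a deletion restricted to the liver, while WT livers kept the gene. All mice were C57Bl/6J males aged 8 weeks, killed 16 h after lights on, and the fasted ones had been without food for 24 h. The Cre driver of the deletion is not given in the sources used here, and the RNA came from whole liver.

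Ribosomes take up much of a cell's energy, and their proteins are made in matched amounts from genes scattered over the genome. In this set the 86 genes lay on 19 chromosomes, with at most 14 on any of them. Ribosomal protein mRNAs typically begin with a C and a run of pyrimidines, the TOP motif, through which the nutrient sensor mTORC1 and its partner Larp1 control translation and storage of the message. Food withdrawal lowers mTORC1 activity in liver, and the arrays measured the amount of RNA, not its translation.

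Levels below are log2 signals relative to the 75th percentile of each array, and changes are log2 differences ± SE. A gene was called at a Benjamini-Hochberg adjusted p under 0.05, over all 17215 genes, from a limma fit to all 22 animals. The 75th percentile lay between 451 and 621.2 intensity units on the 24 arrays, 52.2% to 60.6% of spots were well above background, and no spot was saturated. Ppara, the deleted gene, averaged 5.04 ± 0.12 in fasted LKO, 4.61 ± 0.37 in fed LKO, 5.90 ± 0.13 in fasted WT and 5.27 ± 0.20 in fed WT livers (SD), so its probe was lower in LKO but still read signal. Fed LKO replicate 3 stood apart over all genes: 1008 genes lay over 1 log2 unit from the median of the other fed LKO mice, against 208 to 419 for those mice. Counts are therefore also given without that animal where it moved them by over 1.5 times. In bulk tissue, fewer cells of a type and less RNA per cell cannot be told apart.

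The median SD within a group was 0.064 over the 82 members, against 0.176 over all genes, and the median distance between the highest and lowest of the 4 group means was 0.162, against 0.446. The members' probes were bright, 80 of 82 in the top decile of signal, and the values over all genes include dim probes and were not matched on signal. For 65 members the group means spanned under 0.25 log2 units. The first component of their deviations from the group means held 43.5% of the members' variance. The median member level per animal averaged 6.73 ± 0.07 in fasted LKO, 6.74 ± 0.05 in fed LKO, 6.64 ± 0.04 in fasted WT and 6.74 ± 0.05 in fed WT livers (SD, n = 6, 6, 5 and 5, with Rplp0 left out because 1 animal lacked it). The members' share of the summed signal of all genes tested was 4.40% ± 0.15 in fasted LKO, 4.43% ± 0.16 in fed LKO, 3.97% ± 0.11 in fasted WT and 4.45% ± 0.22 in fed WT livers. Fasted WT livers spanned 3.82% to 4.10% and fed WT livers 4.10% to 4.62%, so the groups met at one end. The share includes Rplp0 except in fasted WT replicate 5, the 3.82% animal, which had no value for it.

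Fasting lowered many ribosomal protein mRNAs in WT liver by a small amount. Of the 82 members 33 fell and 3 rose, which is 40.2% and 3.66%. Over all genes tested 21.8% fell and 22.6% rose, 44.4% in all. The median change was -0.10 (all genes 0.00), the range -0.55 to 0.16, and 71 of 82 values were negative. By subunit, 21 of 45 large subunit genes fell and 1 rose (median -0.11), and 9 of 31 small subunit genes fell and 2 rose (median -0.08). Groups did not overlap for 32 members that were lower (17.1% of all genes) and 2 that were higher (17.3%). The 5 largest falls were of Rpl36al, Rpl22l1, Rpl12, Rpl35a and Rpl10, and the 3 rises were of Rps27, Rps28 and Rpl36. With quantile normalization, and in the authors' deposited table, 56 and 55 members fell and the 3 rises were no longer called.

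Rpl36al, a paralogue of the large subunit gene Rpl36a, had the largest fall. It measured 5.77, 5.89 and 5.96 (lowest, median, highest) in fasted LKO livers and 6.22, 6.27 and 6.38 in fed LKO livers. In fasted WT livers it measured 5.66, 5.72, 5.75, 5.58 and 5.85, and in fed WT livers 6.25, 6.27, 6.28, 6.17 and 6.35. Every fasted liver of either genotype lay below every fed one. The change was -0.41 ± 0.05 in LKO (24.8% lower, adjusted p = 7.2e-07) and -0.55 ± 0.05 in WT (31.8% lower, adjusted p = 8.7e-08).

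Rpl35a, a large subunit protein whose human gene is mutated in some Diamond-Blackfan anaemia families, measured 6.24, 6.32 and 6.36 in fasted LKO livers and 6.43, 6.61 and 6.65 in fed LKO livers. It stood at 6.27, 6.24, 6.27, 6.26 and 6.23 in fasted WT livers and at 6.62, 6.66, 6.57, 6.55 and 6.55 in fed WT livers. Here too the fasted and fed livers were separate in both genotypes, and the fasted WT livers spread over 0.04 log2 units. It fell by 0.27 ± 0.04 in LKO and by 0.33 ± 0.05 in WT. Both changes were called (adjusted p = 2.6e-05 and 7.0e-06), and their difference was not (0.07 ± 0.06, adjusted p = 0.505). These 2 genes each kept 2 probes, and the probe that was not the brighter one showed the same falls, by 0.40 and 0.54 in LKO and WT for Rpl36al and by 0.25 and 0.31 for Rpl35a. Their sequences are shown because these messages carry the clearest fall with fasting (60 bases each, mm9, chr12:70284093-70284152 on the minus strand and chr16:33058766-33058825 on the plus strand). The Rpl35a probe shown shares a run of 44 bases with a probe of another gene name.
Rpl36al: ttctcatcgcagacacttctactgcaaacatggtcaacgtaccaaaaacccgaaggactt
Rpl35a: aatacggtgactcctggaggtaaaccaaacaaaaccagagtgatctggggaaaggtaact

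**Figure D1:**
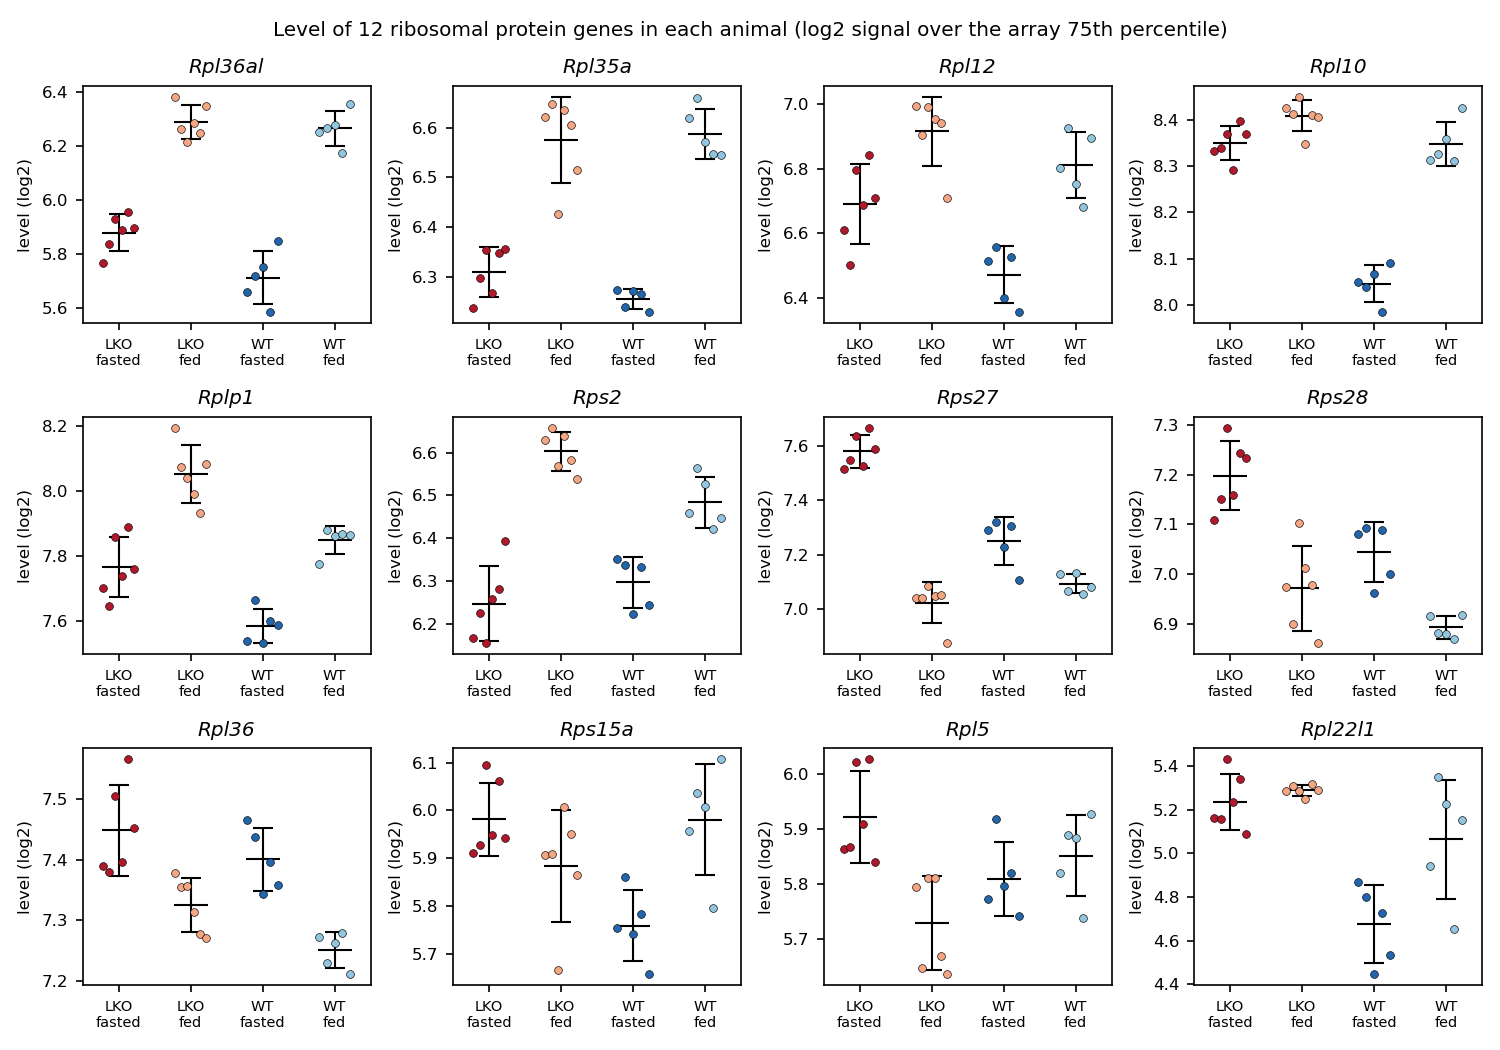
Level of 12 ribosomal protein genes in each animal. The y axis of each panel is the log2 signal over the array's 75th percentile, on a scale of its own; points are animals (6 fasted LKO, 6 fed LKO, 5 fasted WT, 5 fed WT) and the lines are the mean ± SD. Rpl36al and Rpl35a are lower in every fasted liver than in any fed one, Rpl10 is low in fasted WT livers alone, and Rps27 is highest in fasted LKO livers.

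Rpl12, which sits at the base of the stalk where elongation factors dock, measured 6.50, 6.70 and 6.84 in fasted LKO livers and 6.71, 6.95 and 6.99 in fed LKO livers. Its WT values were 6.51, 6.56, 6.40, 6.53 and 6.35 fasted and 6.80, 6.93, 6.75, 6.68 and 6.90 fed. The groups were separate in WT and overlapped in LKO through 1 low fed animal. The fall was 14.5% in LKO (-0.23 ± 0.06, adjusted p = 0.0064) and 21.1% in WT (-0.34 ± 0.07, adjusted p = 0.00055).

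In LKO liver, fasting split the members. Of 82, 11 rose (13.4%, against 22.9% of all genes) and 18 fell (22.0%, against 26.9%), and over all genes 49.8% were called. The median was -0.02 (all genes -0.04) and the range -0.41 to 0.55. Both shares were under the background over all genes. Rises made up 37.9% of the called members, against 52.6% with quantile normalization (20 rose, 18 fell, median 0.03) while 18 rose and 18 fell in the authors' deposited table (median 0.02). Groups did not overlap for 8 members higher (13.1% of all genes) and 8 lower (14.3%). Large subunit genes rose in 6 cases and fell in 12, and small subunit genes rose in 5 and fell in 3. All 6 paralogues were negative and 3 of them fell. Among called members, large rises were those of Rps27, Rps28, Rps9 and Rpl5, and the largest falls were of Rpl36al, Rps2, Rplp1, Rps27l and Rpl35a.

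Rps27, a small subunit protein with a zinc finger, had the largest rise. It measured 7.51, 7.57 and 7.67 in fasted LKO livers and 6.88, 7.05 and 7.09 in fed LKO livers. In WT it measured 7.29, 7.32, 7.23, 7.31 and 7.11 fasted and 7.13, 7.07, 7.13, 7.06 and 7.08 fed. All fasted LKO livers were above all other livers, while the lowest fasted WT liver lay within the fed WT range. The change was 0.55 ± 0.05 in LKO (46.9% higher, adjusted p = 6.8e-09) and 0.16 ± 0.05 in WT (11.4% higher, adjusted p = 0.016), and the difference of the changes was called (0.40 ± 0.07, adjusted p = 0.00044). Its other probe gave 0.58 in LKO and 0.18 in WT. Both Rps27 probes are also listed with the transcript of Rps27rt, an intronless copy, and the array design places both on chromosome 9 although RefSeq has Rps27 on chromosome 3. The signal of the 2 genes therefore cannot be told apart. The probe that is not the brighter one is shown because Rps27 had the largest rise when each member was read by its brightest probe (mm9, chr9:114891672-114891731, minus strand, as the array design records it).
Rps27: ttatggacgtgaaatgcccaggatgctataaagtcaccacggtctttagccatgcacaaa

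Rps28, a small subunit protein near the mRNA exit, measured 7.11, 7.20 and 7.29 in fasted LKO livers and 6.86, 6.98 and 7.10 in fed LKO livers. Its fasted WT values were 7.08, 7.09, 6.96, 7.09 and 7.00 and its fed WT values 6.92, 6.88, 6.88, 6.87 and 6.92. Fasted livers were above fed ones in both genotypes. The rise was 0.23 ± 0.04 in LKO (adjusted p = 0.00028) and 0.15 ± 0.05 in WT (adjusted p = 0.016). Rpl36, of the large subunit, rose in both as well, by 0.12 ± 0.04 and 0.15 ± 0.04 (adjusted p = 0.015 and 0.0089), and the LKO call was lost with only the compared groups fitted (adjusted p = 0.0578).

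Rps2, which lines the channel where mRNA enters, measured 6.15, 6.24 and 6.39 in fasted LKO livers and 6.54, 6.61 and 6.66 in fed LKO livers. In fasted WT livers it measured 6.35, 6.34, 6.22, 6.33 and 6.24, against 6.46, 6.56, 6.53, 6.42 and 6.45 in fed WT livers. Again no fasted liver reached a fed one of its genotype. It fell by 21.9% in LKO (-0.36 ± 0.04, adjusted p = 1.5e-06) and by 12.1% in WT (-0.19 ± 0.05, adjusted p = 0.0042), and the difference of -0.17 was not called (adjusted p = 0.082). Rpl3, a large subunit protein that reaches toward the peptidyl transferase centre, fell in LKO by 0.22 ± 0.05 (adjusted p = 0.0011), a call that was lost with quantile normalization and in the authors' deposited table.

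**Figure D2:**
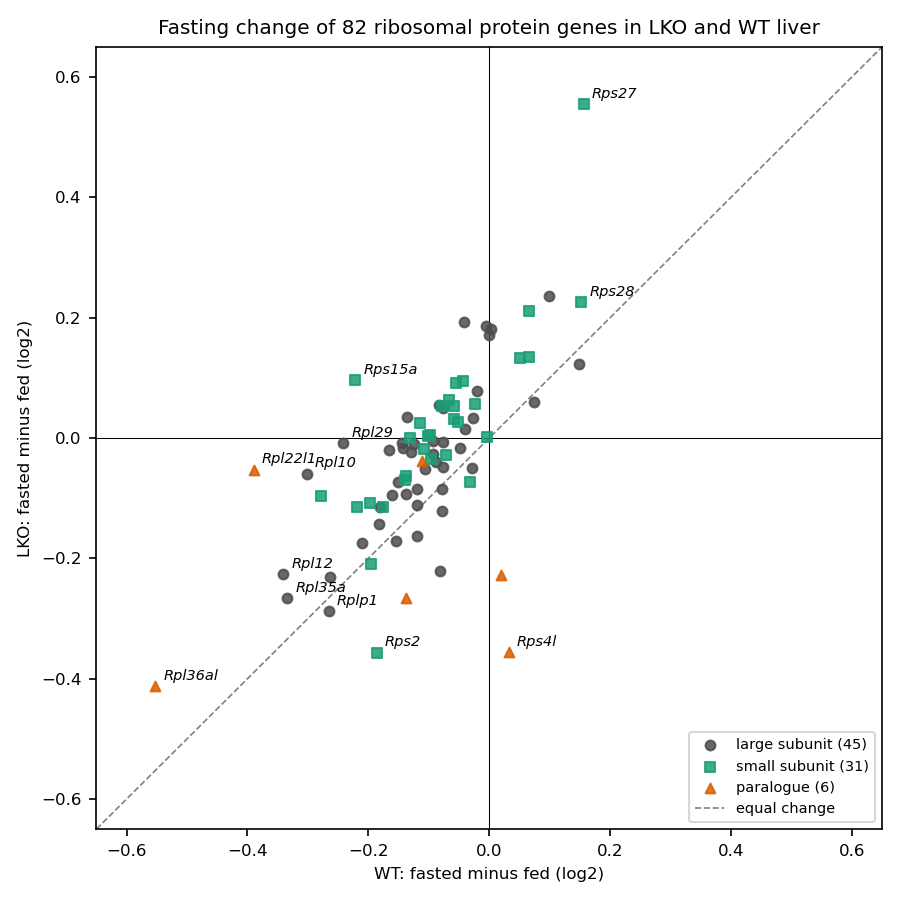
Fasting change of the 82 members in LKO (y axis) against WT (x axis), both as fasted minus fed on the log2 scale, marked by subunit. The dashed line marks equal change; 67 of 82 members lie above it, with Rps27 farthest, and most members lie left of 0 on the WT axis.

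In the fed state few members were called between genotypes. Rplp1 alone was called higher in LKO, 1.22% of members against 1.97% of all genes. By limma 0 members were called lower (1.99% of all genes, 3.96% in either direction), and at an unadjusted p under 0.05 there were 4 higher and 3 lower. With quantile normalization 1 member was called lower. The median difference was 0.02 (all genes 0.02), and with quantile normalization it turned to -0.02. Groups did not overlap for 2 members, Rplp1 and Rpsa (over all genes 1.73% were higher and 1.95% lower without overlap, 3.67% in all). Rplp1, a phosphoprotein of the stalk, measured 7.93, 8.06 and 8.20 in fed LKO livers, against 7.78, 7.88, 7.86, 7.87 and 7.87 in fed WT livers. The difference was 0.20 ± 0.05 (15.1% higher, adjusted p = 0.028), and it lost its call when fed LKO replicate 1, 2 or 6 or fed WT replicate 1, 3 or 5 was left out. Rpsa, the laminin receptor and small subunit protein, measured 0.16 higher in fed LKO (adjusted p = 0.071).

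In the fasted state, LKO livers held more ribosomal protein mRNA than WT livers. Of 82 members 31 were higher (37.8%, against 17.9% of all genes) and 2 were lower (2.44%, against 20.0%). The median difference was 0.09 (all genes -0.01) and 71 of 82 were positive. Among small subunit genes 16 of 31 were higher (median 0.12), and among large subunit genes 13 of 45 (median 0.08). Groups did not overlap for 21 members higher (11.7% of all genes) and 2 lower (13.7%, and 25.3% in either direction). The largest differences were of Rpl22l1, Rps27, Rpl10, Rpl10a and Rps25, and the 2 lower members were the paralogues Rpl7l1 and Rps27l. With quantile normalization 61 members were higher and 1 lower (median 0.16), and 59 were higher and 1 lower (median 0.17) in the authors' deposited table.

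Rpl10, which joins the large subunit last and is needed for subunit joining, measured 8.29, 8.36 and 8.40 in fasted LKO livers, against 8.05, 8.04, 8.07, 7.98 and 8.09 in fasted WT livers. Fed livers measured 8.35, 8.41 and 8.45 in LKO and 8.31, 8.33, 8.36, 8.31 and 8.43 in WT. Fasted WT livers stood below every other liver. The difference between fasted genotypes was 0.31 ± 0.04 (23.6% higher in LKO, adjusted p = 1.5e-06). Fasting changed Rpl10 by -0.06 ± 0.03 in LKO, which was not called (adjusted p = 0.17), and by -0.30 ± 0.04 in WT (adjusted p = 2.2e-06). The Rpl10 probe shares a run of 35 bases with a probe of another gene name, and the gene had no other probe to compare.

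Rpl10a, a protein of the stalk beside the exit site of transfer RNA, measured 7.36, 7.47 and 7.54 in fasted LKO livers and 7.26, 7.29, 7.16, 7.23 and 7.10 in fasted WT livers, a difference of 0.25 ± 0.05 without overlap (adjusted p = 0.00058). Rps25, a small subunit protein used by viral internal initiation sites, measured 7.04, 7.09 and 7.31 in fasted LKO livers, against 6.93, 6.97, 6.83, 6.95 and 6.83 in fasted WT livers. That difference was 0.23 ± 0.05 (adjusted p = 0.0011), again without overlap. Rps27a, made as a fusion with ubiquitin, was higher by 0.18 ± 0.04 (adjusted p = 0.0025). Rps6, the small subunit protein that S6 kinase phosphorylates, was higher by 0.12 ± 0.05 (adjusted p = 0.041), and Rpl13a, often used as a control gene, by 0.15 ± 0.06 (adjusted p = 0.047). Both of these calls were lost under many of the other settings, 14 for Rps6 and 22 for Rpl13a.

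The difference of the fasting responses, LKO change minus WT change, was called for 7 members, all positive: Rps27, Rps15a, Rpl10, Rpl5, Rpl29, Rpl9 and Rpl34. That is 8.54% of members, against 7.71% of all genes. By limma 0 were called negative (10.8% of all genes), with 18 positive and 1 negative at an unadjusted p under 0.05. The median was 0.08 (all genes -0.04) and 67 of 82 were positive. With quantile normalization 42 members were called positive (median 0.20) and 34 (median 0.19) in the authors' deposited table, both with 0 negative by limma. Without fed LKO replicate 3 the counts were 10 positive and 1 negative, and without fasted WT replicate 5 they were 4 and 0.

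Rps15a, a small subunit protein close to the centre of the particle, measured 5.91, 5.95 and 6.10 in fasted LKO livers and 5.67, 5.91 and 6.01 in fed LKO livers. It measured 5.75, 5.86, 5.74, 5.78 and 5.66 in fasted WT livers, against 5.96, 6.04, 6.01, 5.80 and 6.11 in fed WT livers. The lowest fed LKO value came from replicate 3, the animal that stood apart over all genes, and the other fed LKO livers measured 5.865 to 6.01. The fasted genotypes did not overlap, and the fed ones did. The change was 0.10 in LKO (adjusted p = 0.20) and -0.22 ± 0.07 in WT (adjusted p = 0.0098), with a difference of 0.32 ± 0.09 (adjusted p = 0.017). Averaging the gene's kept probes removed each of these calls, with 0.19 for the difference (adjusted p = 0.36).

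Rpl29 and Rpl34, large subunit proteins on the particle's surface, followed the pattern of Rpl10. Rpl29 measured 6.93, 6.94 and 7.05 in fasted LKO livers and 6.74, 6.76, 6.71, 6.78 and 6.72 in fasted WT livers. Its change was -0.01 in LKO, which was not called, and -0.24 ± 0.04 in WT, with a difference of 0.23 ± 0.05 (adjusted p = 0.0055). The WT changes of its 2 kept probes differed by 0.13. Under the other settings the Rpl29 difference stayed called, with values down to 0.16 and adjusted p up to 0.0488. Rpl34 changed by 0.03 in LKO and by -0.14 ± 0.04 in WT, where it fell, with a difference of 0.17 ± 0.05 (adjusted p = 0.029). For Rpl9, near the landing site of elongation factors, and for Rpl5 the larger fasting change was in LKO. Rpl9 rose by 0.18 ± 0.04 in LKO and measured 0.00 in WT, with a difference of 0.18 ± 0.06 (adjusted p = 0.043).

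Within the large subunit, the pair that carries the 5S ribosomal RNA and can bind Mdm2, the inhibitor of p53, behaved unequally in LKO. Rpl5 measured 5.84, 5.89 and 6.03 in fasted LKO livers and 5.64, 5.73 and 5.81 in fed LKO livers. Its WT values were 5.77, 5.92, 5.80, 5.82 and 5.74 fasted and 5.82, 5.89, 5.88, 5.74 and 5.93 fed. The LKO groups were separate and the WT groups overlapped. Between genotypes, LKO minus WT, Rpl5 measured -0.12 in the fed state, the lowest value of any member, and 0.11 in the fasted state, neither called. It rose by 0.19 ± 0.05 in LKO (adjusted p = 0.0035), changed by -0.04 ± 0.06 in WT without being called, and the difference was 0.23 ± 0.08 (adjusted p = 0.035). That last call was lost under 14 other settings, where the adjusted p reached 0.079. Rpl11, its partner, passed no test at the main settings, with -0.05 ± 0.04 in LKO and -0.03 ± 0.04 in WT. Under other settings its fall was called in 2 of 35 for LKO (adjusted p down to 0.0307) and 2 of 35 for WT (down to 0.00287).

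Of the stalk proteins, Rplp1 fell with fasting in both genotypes, by 0.29 ± 0.05 in LKO (adjusted p = 5.9e-05) and by 0.27 ± 0.05 in WT (adjusted p = 0.00044). It measured 7.65, 7.75 and 7.89 in fasted LKO livers and 7.54, 7.66, 7.53, 7.60 and 7.59 in fasted WT livers, where it was 0.18 ± 0.05 higher in LKO (adjusted p = 0.0088). Rplp0, which anchors the stalk, changed by -0.02 in LKO and by -0.13 in WT, neither called (adjusted p = 0.07 in WT, where 1 animal had no value). Rplp2 measured 0.06 and 0.07 higher with fasting in LKO and WT, and neither passed. Around the exit tunnel, through which the new chain leaves, 5 of 9 genes fell in LKO (26.9% of all genes fell) and 5 of 9 in WT (21.8% of all genes). Rpl39, a small protein in the tunnel wall, fell by 0.23 ± 0.05 in LKO (adjusted p = 0.00036) and by 0.26 ± 0.05 in WT (adjusted p = 0.00029).

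At the other end, some members hardly moved with fasting. Rps19, the gene most often mutated in human Diamond-Blackfan anaemia, changed by 0.00 in LKO and -0.00 in WT on its brightest probe, and was called in none of the 5 comparisons. Between genotypes it measured -0.12 ± 0.05 in the fed state (adjusted p = 0.204) and -0.11 ± 0.05 in the fasted state (adjusted p = 0.0644), LKO minus WT, the lowest value of the small subunit in both states, and the fasted difference was called under 3 of 35 other settings. The smallest fasting changes in LKO were of Rpl14 in the large subunit and of Rps21 in the small one, and Rpl23 had the smallest of the large subunit in WT. Rpl23 rose by 0.17 ± 0.05 in LKO (adjusted p = 0.0069). Of the large and the small subunit, Rpl15 and Rps26 differed least between fed genotypes, and Rpl11 and Rps14 least between fasted ones.

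The paralogues went different ways. Rpl22l1, a copy of the large subunit gene Rpl22 that can take its place, measured 5.09, 5.20 and 5.43 in fasted LKO livers and 5.25, 5.29 and 5.32 in fed LKO livers. In fasted WT livers it measured 4.87, 4.80, 4.45, 4.73 and 4.54, against 4.94, 5.35, 5.23, 4.66 and 5.15 in fed WT livers. Fasted LKO livers were all above fasted WT livers, by 0.56 ± 0.10 or 47.5% (adjusted p = 0.00018), the largest difference of any member in that comparison. It changed by -0.05 in LKO without a call and fell by 0.39 ± 0.11 in WT (adjusted p = 0.0050), and the difference of 0.34 ± 0.14 was not called (adjusted p = 0.11). Rpl22 itself was 0.12 ± 0.04 higher in fasted LKO (adjusted p = 0.023), a call lost under 3 other settings, 1 of them without fasted WT replicate 5. The Rpl22l1 probe is also listed with a transcript of the predicted gene Gm15421.

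Rps27l, the copy of Rps27 that p53 can induce, fell where Rps27 rose. It measured 6.49, 6.53 and 6.63 in fasted LKO livers and 6.61, 6.86 and 6.90 in fed LKO livers. Its values in fasted WT livers were 6.67, 6.68, 6.76, 6.72 and 6.70, and in fed WT livers 6.84, 6.76, 6.94, 6.81 and 6.88. Fasted LKO livers were below all WT livers. The change was -0.27 ± 0.05 in LKO (adjusted p = 0.00012) and -0.14 ± 0.05 in WT (adjusted p = 0.042). The WT call was lost under 10 of 35 other settings, 7 of them with 1 WT animal left out, where the adjusted p reached 0.111. Fasted LKO was lower than fasted WT by 10.7% (-0.16 ± 0.05, adjusted p = 0.015), a call that was lost with quantile normalization and in the authors' deposited table.

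Rpl7l1, a nucleolar relative of Rpl7, measured 0.28, 0.64 and 0.82 in fasted LKO livers and 0.67, 0.86 and 0.99 in fed LKO livers. In fasted WT livers it measured 0.85, 1.22, 0.97, 0.85 and 1.04, against 0.95, 1.14, 0.94, 0.89 and 0.93 in fed WT livers. Every fasted WT liver was above every fasted LKO liver. The fasted genotypes differed by -0.37 ± 0.09 (22.4% lower in LKO, adjusted p = 0.0033), and fasting changed it by -0.23 ± 0.09 in LKO (adjusted p = 0.035) and 0.02 ± 0.10 in WT. That LKO fasting call was lost under 9 of 35 other settings (adjusted p up to 0.101), among them 6 with 1 LKO animal left out, fed LKO replicate 3 included. Rps4l, a copy of Rps4x, spread widely and passed no test, with medians of 2.78, 3.17, 3.20 and 3.21 in fasted LKO, fed LKO, fasted WT and fed WT livers. The members without a kept probe were 4: Rpl3l, Rpl39l and Rpl10l, known from muscle and testis, were well above background in 2, 1 and 0 animals, and Rpl37 in 1.

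Rpl37 is a plain large subunit gene, and its dim signal came with a bright probe named for its retrocopy Rpl37rt. The Rpl37rt probe was well above background in all 22 animals and is also listed with the Rpl37 transcript. It changed by -0.04 ± 0.04 with fasting in LKO and by -0.11 ± 0.04 in WT, neither called (adjusted p = 0.47 and 0.051). Which of the 2 genes it reads cannot be told apart. The probe named Rpl37rt (mm9, chr5:115552931-115552973, minus strand, the part of its 60 bases that the design places) and the first 30 bases of the probe named Rpl37 (chr15:5068935-5068994, plus strand) are shown for that reason.
Rpl37rt: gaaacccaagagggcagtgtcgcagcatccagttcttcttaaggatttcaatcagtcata
Rpl37: ctaccatgcctacagtgtcttaagacgctt

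Shared sequence is common in this family. Of the 185 member probes, 28 from 23 members share a run of at least 30 bases with a probe of another gene name, and 16 of these members are represented by such a probe. In addition 17 probes of 12 members are listed with a transcript of another gene, often a pseudogene. The design places 7 probes of 4 members, Rpl13, Rpl36, Rps27 and Rps29, on another chromosome than RefSeq does. Leaving those 7 probes out gave 32 members lower and 2 higher with fasting in WT, and 6 called for the difference of the responses.

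Probes of a gene mostly told the same story. Among 96 kept probes that were not the brightest of their gene, 6 from 6 genes differed from the brightest by over 0.25 with a called change of their own (over all 28138 kept probes, by a limit chosen after the values were seen). These genes were Rpl12, Rpl30, Rpl36a, Rps19, Rps20 and Rps9. No gene had probes called in opposite directions.

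Rps9, a small subunit protein at the mRNA entry, was the extreme case. On its brightest probe it measured 6.81, 6.83 and 6.96 in fasted LKO livers and 6.53, 6.63 and 6.75 in fed LKO livers, a rise of 0.21 ± 0.04 (adjusted p = 0.00052), and 0.07 higher in WT without a call. A second probe, designed on another transcript of the locus (ENSMUST00000136858), ran from 0.88 to 1.18 in fasted LKO livers and -0.69 to -0.13 in fed LKO livers. In WT it measured -0.24, 0.00, 0.18, 0.19 and -0.02 fasted and -0.58, -0.53, -0.35, -0.37 and -0.75 fed. Fasted LKO livers were far above all others. The rise was 1.48 ± 0.09 in LKO (adjusted p = 2.55e-10) and 0.54 ± 0.10 in WT (adjusted p = 0.000272), with a difference of 0.94 ± 0.14 (adjusted p = 0.000138), all adjusted over the 28138 probes. The brightest probe (mm9, chr7:3658287-3658346, plus strand) and the first 30 bases of the second (placed within chr7:3657509-3657656, plus strand) are shown because they disagree in size.
Rps9: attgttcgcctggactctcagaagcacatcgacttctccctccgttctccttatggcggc
Rps9, second probe: aacgtcacattagcctttggagctgacaga

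Rps19 showed the same split in the other direction. Its second probe, designed on the clone AK012052, fell by 0.77 in LKO (adjusted p = 1.63e-09) and by 0.42 in WT (adjusted p = 1.6e-05), while the brightest probe stayed at 0.00 and -0.00. Fasted LKO was lower than fasted WT by 0.57 on that second probe (adjusted p = 2.54e-07), and the difference of the responses was -0.35 (adjusted p = 0.00648). A second Rps20 probe rose by 0.68 in LKO and 0.64 in WT, against 0.00 and -0.10 on the brightest one. That second probe was dim, with a mean level of -2.32 against 7.74 on the brightest. The fasting changes of the gene's 2 bright probes differed by 0.01 in LKO and 0.03 in WT.

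**Figure D3:**
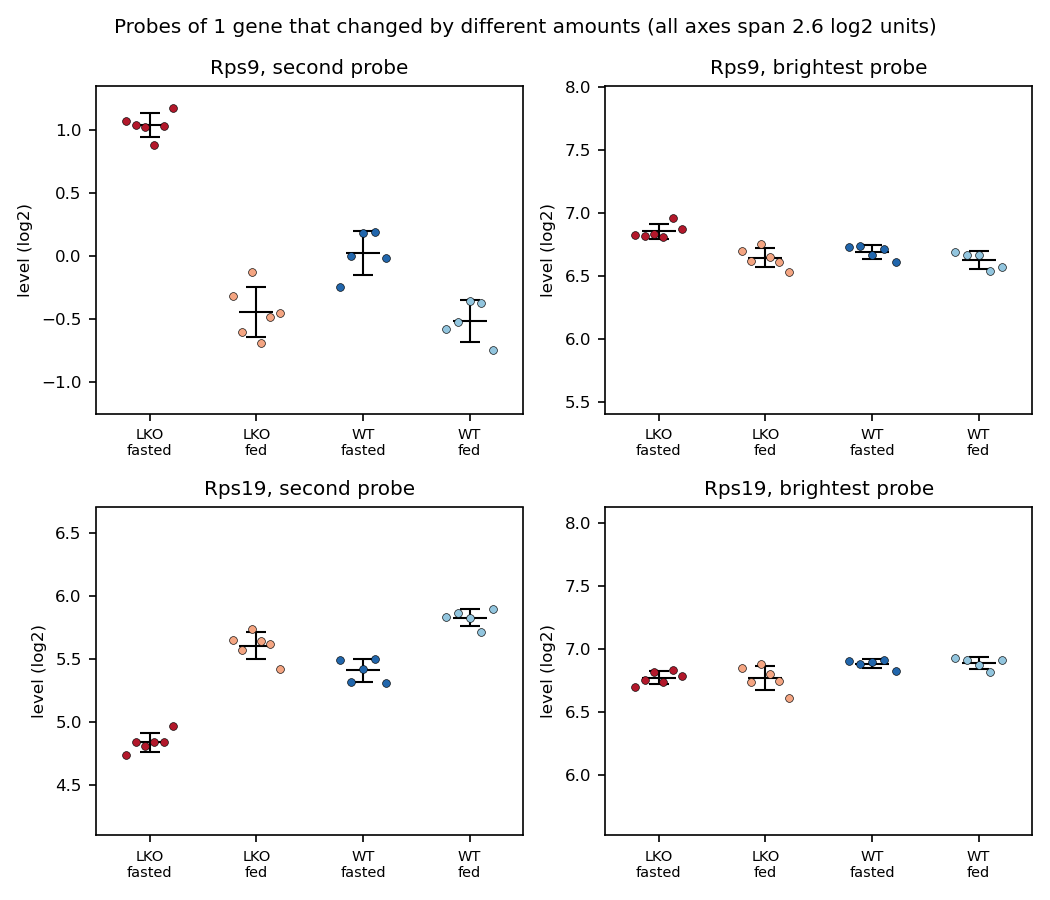
Levels of 2 probes each of Rps9 and Rps19 in every animal (log2 signal over the array's 75th percentile; points are animals, lines the mean ± SD; all y axes span 2.6 units). The second Rps9 probe lies between 0.88 and 1.18 in fasted LKO livers, above all other groups, and the brightest probes of both genes vary far less.

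RefSeq promoter windows (GRCm38.p6, 250 bases before to 50 after a start) were found for 65 of the 86 members, 77 windows in all, and were searched on both strands. CCGGAAG, the ETS and GABP core, was in 35.1% of member windows and 8.86% of all 32851. CTTTCC was in 49.4% and 26.6%, the YY1 motif in 6.49% and 0.852%, the palindromic element that the protein Banp binds in 9.09% and 0.466%, GGGCGG (the Sp1 box, which can overlap others) in 59.7% and 35.7%, and TATAAA in 9.09% and 13.6%. On the gene's own strand, a C at the start followed by 4 pyrimidines was in 16.9% of member windows and 2.51% of all. A C followed by 6 pyrimidines within 20 bases of the start was in 46.8% and 18.7%. CCGGAAG was in 13 of 27 members that fell in fasted WT liver and in 11 of 34 other tested members, and CTTTCC in 15 of 27 and 17 of 34. These windows describe the letters present and no factor's binding was measured.

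The 120 bases around the start (100 before and 20 after) are shown for 8 members that moved in different ways, chosen with the values in view, with the ETS core CCGGAAG, the hexamer CTTTCC and the palindromic Banp element in capitals on either strand (RefSeq, GRCm38.p6). Rps27 and Rps28 rose with fasting in both genotypes, Rps2, Rpl12, Rpl36al and Rps27l fell in both, and Rpl10 and Rpl22l1 fell in WT. The WT rises of Rps27 and Rps28 were not called with quantile normalization or in the authors' deposited table. Positions are Rps27 chr3:90213629-90213748 (minus strand), Rps28 chr17:33824543-33824662 (minus strand), Rps2 chr17:24719963-24720082 (plus strand), Rpl12 chr2:32961612-32961731 (plus strand), Rpl36al chr12:69184048-69184167 (minus strand), Rps27l chr9:66945986-66946105 (plus strand), Rpl10 chrX:74270716-74270835 (plus strand) and Rpl22l1 chr3:28805408-28805527 (plus strand).
Rps27: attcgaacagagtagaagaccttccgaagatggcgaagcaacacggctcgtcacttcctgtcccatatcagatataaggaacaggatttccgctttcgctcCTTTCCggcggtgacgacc
Rps28: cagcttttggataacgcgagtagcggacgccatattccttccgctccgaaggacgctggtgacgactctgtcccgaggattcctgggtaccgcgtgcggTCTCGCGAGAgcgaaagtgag
Rps2: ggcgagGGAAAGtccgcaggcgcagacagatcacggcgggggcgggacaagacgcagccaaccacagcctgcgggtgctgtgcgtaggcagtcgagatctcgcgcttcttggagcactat
Rpl12: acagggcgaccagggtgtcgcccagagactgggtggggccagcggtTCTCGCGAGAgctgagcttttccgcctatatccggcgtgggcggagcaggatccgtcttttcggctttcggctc
Rpl36al: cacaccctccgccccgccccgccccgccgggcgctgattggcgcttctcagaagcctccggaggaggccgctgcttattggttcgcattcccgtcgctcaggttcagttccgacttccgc
Rps27l: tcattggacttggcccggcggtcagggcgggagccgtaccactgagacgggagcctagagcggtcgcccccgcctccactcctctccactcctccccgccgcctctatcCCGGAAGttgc
Rpl10: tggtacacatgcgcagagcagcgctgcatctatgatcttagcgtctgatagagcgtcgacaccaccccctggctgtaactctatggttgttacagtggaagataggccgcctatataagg
Rpl22l1: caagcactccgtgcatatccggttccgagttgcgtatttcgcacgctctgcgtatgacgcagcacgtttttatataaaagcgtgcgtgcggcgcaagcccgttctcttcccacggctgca
In these stretches the Banp element was in Rps28, which rose, and in Rpl12, which fell, and CTTTCC was in Rps27, which rose, and in Rps2, which fell. The Rps27 probes are also listed with Rps27rt, so that rise cannot be assigned to the Rps27 promoter shown.

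Other genes of ribosome production gave context, from lists chosen with earlier results known. Over all genes tested, 22.9% rose and 26.9% fell with fasting in LKO, 22.6% rose and 21.8% fell in WT, and 17.9% were higher and 20.0% lower in fasted LKO than in fasted WT. Fau, a small subunit protein made as a fusion with a ubiquitin-like protein, lies outside the naming rule. Fau rose by 0.19 ± 0.05 in LKO (adjusted p = 0.00482) and by 0.31 ± 0.06 in WT (adjusted p = 0.000135). Of 20 other genes with TOP mRNAs, such as elongation and initiation factors, 12 rose and 4 fell in LKO, and 7 rose and 2 fell in WT (median 0.17 and 0.06). Of 58 ribosome assembly genes, 21 rose and 11 fell in LKO, and 8 rose and 12 fell in WT, where the 20.7% that fell was near the share over all genes. In the fasted state 26 of the 58 were higher in LKO and 6 lower (median 0.21). Among them were Ddx21, a nucleolar helicase (0.90 ± 0.09), Utp14a (0.71 ± 0.08) and Npm1, the nucleolar chaperone of ribosomal proteins (0.68 ± 0.07). RNA polymerase I and III genes counted 9 higher and 3 lower of 31 in that comparison, and initiation factors 10 and 4 of 38.

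Mitochondrial ribosomal proteins, which build a separate ribosome, went the other way in the fasted state. Of 77 tested, 49 were lower in fasted LKO than in fasted WT and 1 was higher (median -0.19), and 52 fell and 8 rose with fasting in LKO (median -0.22, against 26.9% falling and 22.9% rising over all genes). In WT 20 fell and 13 rose (median -0.02). The difference of the responses was called for 27, all negative (median -0.19). Examples in the fasted comparison were Mrps36 (-0.61 ± 0.10), Mrpl17 (-0.59 ± 0.05) and Mrpl45 (-0.56 ± 0.06). Genes of the mTORC1 pathway and its brakes moved both ways, 15 higher and 9 lower of 42 in fasted LKO, with the lysosomal brake and regulator Flcn 0.89 ± 0.08 higher. Myc, a transcription factor that drives ribosome production, rose with fasting by 1.41 ± 0.39 in LKO (adjusted p = 0.0046) and measured 0.25 ± 0.42 in WT (adjusted p = 0.67), and the difference was not called (1.16 ± 0.57, adjusted p = 0.17). Of 10 p53 target and surveillance genes, 5 were higher in fasted LKO, among them Bax (0.50 ± 0.06) and Bbc3 (0.47). In the fed state 2 of the 10 were higher in LKO, against 1.97% of all genes: Cdkn1a (1.29 ± 0.34) and Bbc3 (0.45 ± 0.10).

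**Figure D4:**
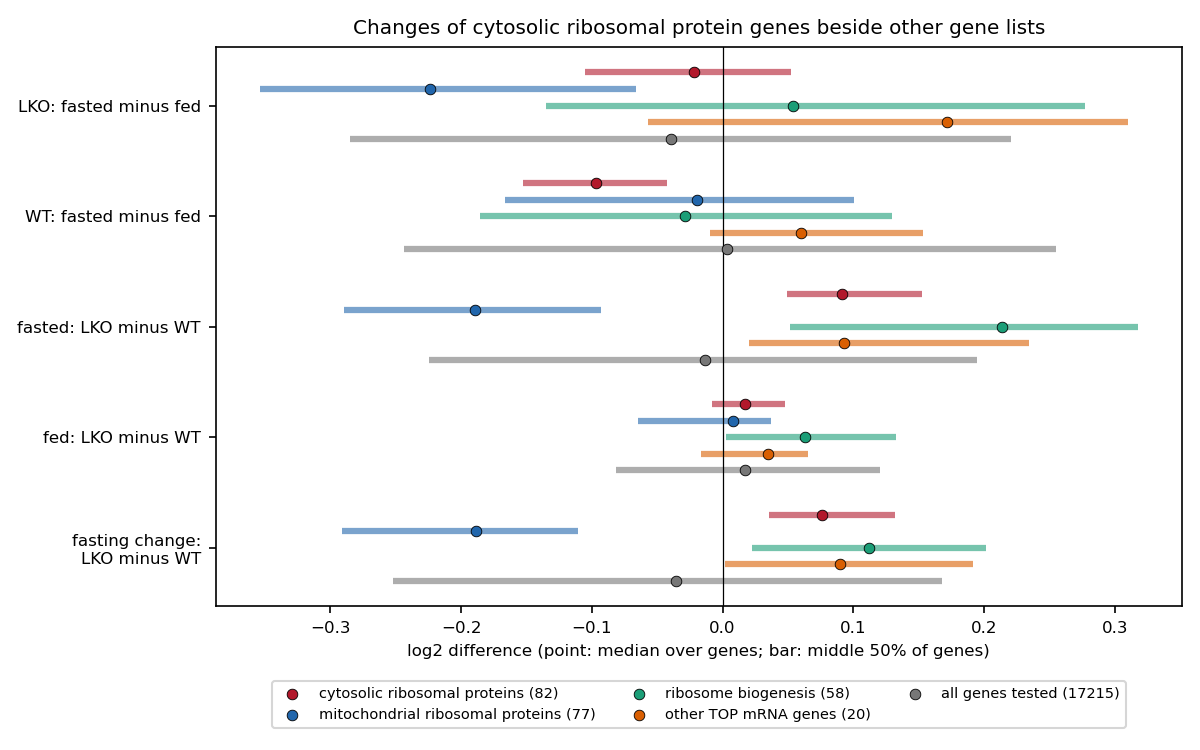
Changes of the cytosolic ribosomal protein genes beside 3 other lists and all genes tested, for 5 comparisons. Points are medians over genes and bars span the middle 50% of genes, in log2 units; in the fasted state the cytosolic ribosomal protein genes lie above 0 (median 0.09) and the mitochondrial ones below (median -0.19).

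Markers of other liver cells moved between some of the same groups. The mean level of 10 endothelial markers was 1.00 ± 0.11 in fasted LKO, 1.11 ± 0.18 in fed LKO, 1.58 ± 0.17 in fasted WT and 1.09 ± 0.16 in fed WT livers (SD). Its range was 0.80 to 1.14 in fasted LKO and 1.28 to 1.69 in fasted WT, and 9 of the 10 genes were lower in fasted LKO than in fasted WT (median -0.43). Of 12 hepatocyte markers tested, 1 was lower in that comparison, and their mean was 8.54 ± 0.04 in fasted LKO, 8.44 ± 0.04 in fed LKO, 8.54 ± 0.02 in fasted WT and 8.39 ± 0.08 in fed WT livers. The 5 erythroid markers averaged 3.10 in fasted LKO, 3.65 in fed LKO, 2.68 in fasted WT and 3.21 in fed WT livers. In fasted LKO against fasted WT, 1 of 11 macrophage markers was lower, 1 of 8 lymphocyte, 2 of 7 cholangiocyte and 2 of 5 erythroid markers were higher, and by limma 0 of 10 stellate markers passed (1 was lower at an unadjusted p under 0.05). The part of these cells in the members' differences was not tested.

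How large the family's shift was depended on the normalization. With quantile normalization the members called in fasted LKO against fasted WT numbered 61 higher, against 31 in the values scaled to the 75th percentile. The median difference of all genes in that comparison was 0.00 with quantile normalization and -0.01 with scaling to the 75th percentile. The sign of the members' median in WT fasting, in the fasted genotypes and in the difference of the responses was the same under each scaling tried. The medians of LKO fasting and of the fed genotypes changed sign with quantile normalization and in the authors' deposited table.

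**Figure D5:**
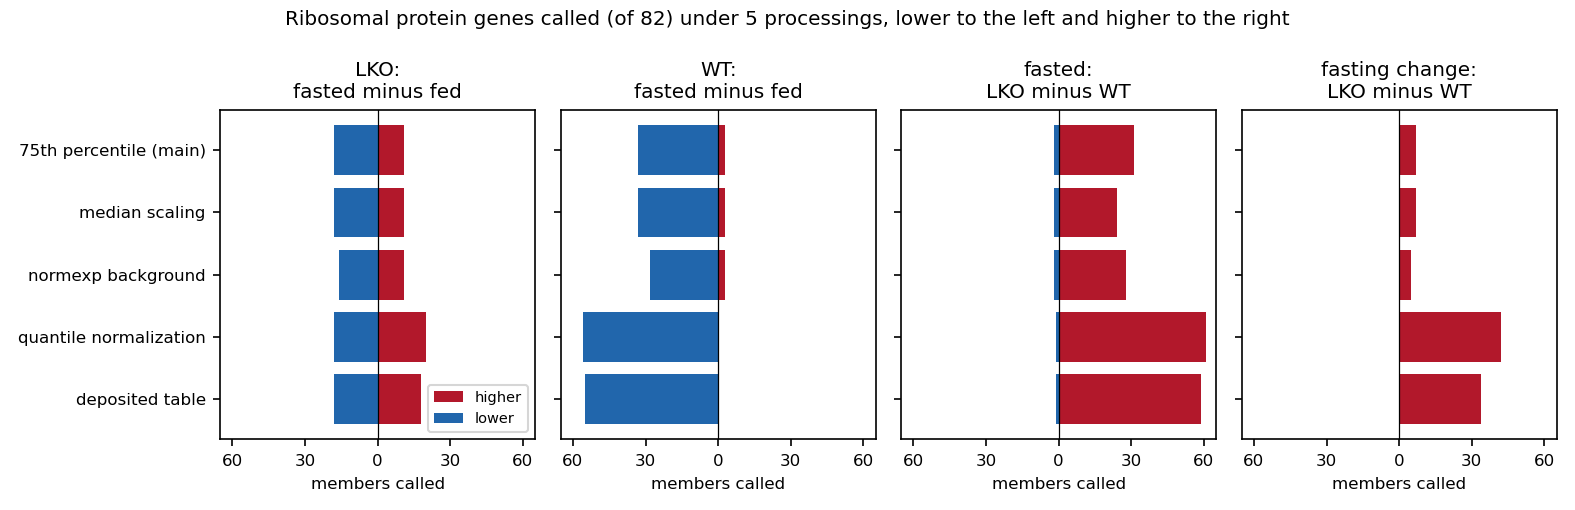
Members called of 82 under 5 processings, higher to the right and lower to the left, in 4 comparisons. In WT fasting 33 members fell with scaling to the 75th percentile and 56 with quantile normalization; in the fasted genotypes 31 and 61 were higher in LKO.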

How the data were processed

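Total liver RNA of 22 animals was labelled with Cy3 and hybridised to 24 1-colour Agilent arrays. Fasted WT replicate 1 and fed WT replicate 3 were each hybridised to 2 arrays, and the series text states 24 mice while the labels' animal numbers give 22. Per the file headers, the authors' scanner intensities were extracted with Agilent Feature Extraction 10.10.1.1, background-subtracted, with probes placed on mm9. The deposited table holds log2 values of 31356 probes that the authors normalized, per the submitters' processing notes with limma. Its repeat arrays are identical and its columns correlate with quantile normalized values at 0.9916 or more.

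From the intensities, log2 processed signals were scaled to the 75th percentile of all non-control spots of each array. Repeat spots, with outlier spots left out, and repeat arrays were averaged. Of 46291 probes with a symbol, 28138 were well above background in at least 5 animals, and the brightest kept probe stood for each of 17215 genes. limma 3.58.1 (R 4.3.3) fitted 1 mean per group over all animals, with 5 contrasts and Benjamini-Hochberg adjustment over all genes, after the procedure was tested on simulated data. The labels give animals as replicates, and the number of arrays limits precision. The members and all gene lists were chosen with earlier results of these data known. Named members were a panel of 14 well-known ones, every paralogue, the 5 largest called changes per direction and comparison, the smallest change per subunit, and members not above background. Named other genes were the 3 largest changes per list and comparison, with Ppara and Myc. Values of some single genes that this rule names are not reported here.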

Additional observations from a re-analysis of the deposited data

Results flagged for a closer look

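In 13 of 160 groups of animals tested, 1 animal lay apart from the others by Dixon's criterion, which chance alone meets in about 1 of 20 groups. Among the stalk and binding proteins, Rplp0 stood at 6.841 in fasted WT replicate 1 (others 6.737 to 6.753), Rplp1 at 7.775 in fed WT replicate 1 (others 7.862 to 7.882), Rplp2 at 7.965 in fasted LKO replicate 5 (others 7.713 to 7.803) and Rpsa at 7.38 in fed LKO replicate 2 (others 7.257 to 7.289). Fed WT replicate 4 was low for Rpl3 at 6.15 (others 6.334 to 6.406), for Rpl11 at 7.877 (others 7.926 to 7.946) and for the median member level at 6.649 (others 6.748 to 6.772). Fed LKO replicate 6 was low for Rps27 at 6.876 (others 7.042 to 7.087), Rpl12 at 6.709 (others 6.903 to 6.995) and Rps25 at 6.919 (others 7.058 to 7.073). Rpl13a stood at 6.881 in fed LKO replicate 3 (others 6.467 to 6.594), the animal that differed most over all genes. The paralogues Rpl7l1, at 1.143 in fed WT replicate 2 (others 0.8875 to 0.9452), and Rps4l, at 3.574 in fasted WT replicate 2 (others 3.064 to 3.2), complete the set.

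The fasting response differed between LKO and WT, by limma's test of the difference, for 7 members: Rps27 (0.398311), Rps15a (0.318584), Rpl10 (0.242937), Rpl5 (0.234283), Rpl29 (0.233167), Rpl9 (0.178231) and Rpl34 (0.171395), in log2 units of LKO change minus WT change. It differed as well on the second probes of Rps9 (0.943093) and Rps19 (-0.350826).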

How the results depend on the processing

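Quantile normalization and the authors' deposited table moved most counts. In WT fasting they called 0 and 0 members higher and 56 and 55 lower, with medians of -0.17 and -0.16. In LKO fasting 20 and 18 were higher. Between fasted genotypes 61 and 59 were higher and 1 and 1 lower (medians 0.16 and 0.17), and for the difference of the responses 42 and 34 were higher (medians 0.20 and 0.19). Between fed genotypes quantile normalization called 1 member lower. In that comparison 0 were higher without the filter on dim probes, with the replicate number as a block and with only the compared groups fitted and 2 with probes averaged. For LKO minus WT, fed, all genes called numbered 374 with only the compared groups fitted, against 681. The difference of the responses kept 4 higher without the filter and 4 with the replicate block. The members median log2 change, LKO minus WT, fed, was 0.0899 within slide 1, 0.0151 within slide 2 and -0.0467 within slide 3, each with 2 arrays per group, and slide 1 held fed LKO replicate 3. The cause was not tested.

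Leaving out each animal in turn gave 3 to 3 higher and 25 to 37 lower in WT fasting (median -0.11 to -0.08, 6999 to 8127 of all genes called). In LKO fasting it gave 10 to 12 and 15 to 21 (-0.04 to -0.01, 8159 to 8771). Between fed genotypes it gave 0 to 2 and 0 to 0 (0.00 to 0.03, 471 to 883), between fasted ones 22 to 34 and 2 to 3 (0.08 to 0.11), and for the difference of the responses 4 to 10 and 0 to 1 (0.06 to 0.10, 2745 to 4009). Of 63 called results on named genes, 20 lost the call under some alternative, and 0 of 190 reversed. Among the named results not called, 41 passed under some alternative, 33 of them under quantile normalization or in the authors' deposited table. Some estimates that were not called changed sign, such as Rplp2 in WT fasting (-0.09 to 0.09). Same-numbered animals correlated between -0.18 and 0.18 (median 0.02), with 5 of 31 pairs over 0.1. Differently numbered animals correlated between -0.17 and 0.19 (median -0.0007), with 15 of 150 pairs over 0.1. These values cannot settle whether the numbers pair the animals, because a weak pairing could go unseen. The replicate block gave 27 members lower in WT fasting, against 33 without it.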
